A study of Caenorhabditis elegans with 12 samples.

Results

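Larvae of the *lin-22(ot269)* strain were compared with larvae of the *lin-22(ot267)* strain, with 3 RNA sequencing libraries of each, 6 of the 12 libraries of the study. The libraries were chosen by their strain labels, OH4271 for *lin-22(ot269)* and OH4265 for *lin-22(ot267)*. In *lin-22(ot269)* a single C-to-T change lies far upstream of the *lin-22* ATG, while *lin-22(ot267)* has a stop codon at residue 62 of the protein. Both strains carry the transgene *vtIs1*, a *dat-1*∷*GFP* reporter of dopaminergic neurons that is marked with a mutant *rol-6*, so the marker is shared between them. The other libraries came from JR667, which has wild-type *lin-22* and the seam cell marker *wIs51*, and from *lin-22(icb38)* with *wIs51*, an allele in which the distal *lin-22* promoter is deleted. Animals were synchronised and collected as L3 larvae at 31 hr posthatching, and RNA of whole larvae was sequenced, all tissues together. Each mutation is represented by 1 strain, so the effect of the *lin-22* allele, any other difference between the strains and the exact stage of the larvae at collection cannot be told apart.

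*lin-22* encodes a basic helix-loop-helix transcription factor related to the Hes repressors. It acts in the seam cells, the row of stem-like cells in the epidermis of each side of the worm, which divide in every larval stage to give hypodermal cells, neurons and more seam cells. Loss of *lin-22* turns anterior seam lineages towards neuronal fates, and extra dopaminergic postdeirid neurons are a hallmark of the mutants. Because both strains are mutant, the comparison asks how a change in upstream sequence differs from a stop codon in the coding sequence.

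The counts are listed per transcript, with isoforms of a gene in separate entries that share reads, and also for repeat families. Total counts were between 61241436 and 67187029 in the *lin-22(ot269)* libraries and between 56479069 and 74971550 in the *lin-22(ot267)* libraries. Levels are normalised counts, that is, counts divided by a size factor of the library, and differences are log2 values of *lin-22(ot269)* minus *lin-22(ot267)*. An entry is called higher or lower where its adjusted p was under 0.1 with edgeR's quasi-likelihood test and Benjamini-Hochberg adjustment over all entries tested. For any single gene, permuting 3 against 3 libraries gives no exact two-sided p smaller than 0.1, and the calls therefore rest on the spread estimated across all entries. *lin-22(ot267)* replicate 3 stood somewhat apart, with correlations of 0.958 and 0.959 to the other libraries of its strain, which had 0.986 between them, so counts are also given without it.

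Of 19696 entries tested, 1956 (9.93%) passed the threshold, 1109 higher (5.63%) and 847 lower (4.3%) in *lin-22(ot269)*. At least a 2-fold change was seen in 583 of them (2.96%), of which 339 were higher (1.72%) and 244 lower (1.24%). Taking the most abundant transcript of each gene, 1711 of 16110 genes (10.6%) passed, 967 of them higher (6.0%) and 744 lower (4.62%). Of these genes, 551 changed at least 2-fold (3.42%), 314 upwards (1.95%) and 237 downwards (1.47%). In whole larvae, fewer cells of a type and less RNA per cell cannot be told apart. The median log2 size of the change was 0.75 among the higher entries and 0.66 among the lower ones. Against these, the median difference over all entries tested was -0.01. Lack of overlap between the libraries of the strains was more common than a call. It was seen for 3016 of the 19696 entries in the higher direction (15.3%) and for 3015 in the lower (15.3%). When libraries were scaled by their totals alone, 1255 entries were higher and 600 lower, so the balance between directions depends on the scaling. Without *lin-22(ot267)* replicate 3 there were 931 higher and 753 lower, while without *lin-22(ot269)* replicate 1 the total fell to 1019 and without *lin-22(ot269)* replicate 3 to 1090. Of genes below 100 mean normalised counts, 214 of 3843 were called (5.57%), with a smallest difference of 0.82, and of genes between 100 and 1000, 636 of 5058 (12.6%), with a smallest difference of 0.32.

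**Figure D1:**
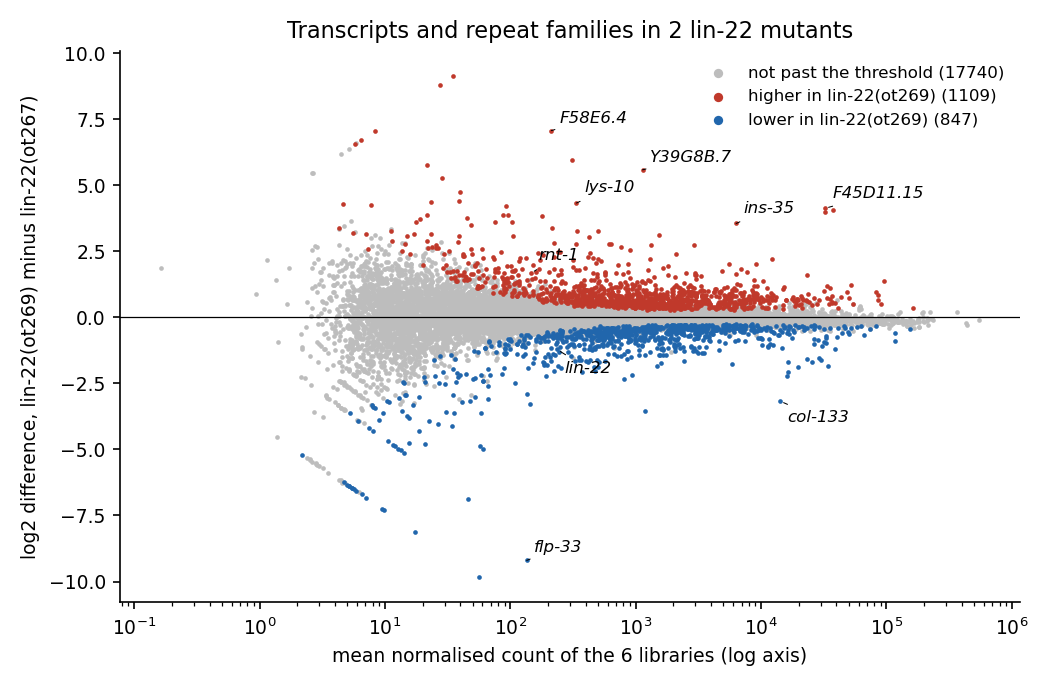
Log2 difference between *lin-22(ot269)* and *lin-22(ot267)* for each of the 19696 entries tested, against the mean normalised count of the 6 libraries on a log axis. Red points are the 1109 entries called higher in *lin-22(ot269)*, blue points the 847 called lower, and grey points those that did not pass the threshold; most called entries differ by less than 2-fold, as the medians of 0.75 and 0.66 show.

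The most regular feature of the comparison was a block of neighbouring genes at one end of chromosome II. In the gene order of the WBcel235 table, the 159 genes tested from the first one, 2L52.1, to F45D11.16 held 116 called higher in *lin-22(ot269)* (73%, against 5.34% of all other genes) and 0 called lower, also at an unadjusted edgeR p under 0.05 and with DESeq2. The 159 genes that follow held 10 higher and 4 lower. The ends of the block were set after its values were seen, so no test of it is given. Among the 113 of its genes with at least 100 normalised counts in *lin-22(ot267)*, 92.0% were called higher, and the median difference was 0.93 (quartiles 0.81 and 1.19), a fold of 1.91. For the 95 such genes that follow, the median was 0.03.

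The rise was seen in each of the 3 *lin-22(ot269)* libraries and in none of the 9 libraries of the other strains. Relative to the JR667 mean, the median fold over the 113 genes was 1.98, 1.97 and 1.99 in the *lin-22(ot269)* libraries. It was 1.05, 1.02 and 1.06 in the *lin-22(ot267)* libraries, between 0.99 and 1.02 in those of JR667, and 0.99, 1.01 and 1.01 in those of *lin-22(icb38)*. Sliding a window of 40 neighbouring genes along every chromosome gave 96 windows of 11695 with a median difference of at least 0.5 in either direction. All 96 held genes of this block. Windows without any of its genes had medians between -0.17 and 0.19. No genomic DNA was measured here, so the number of copies of these genes in the strains was not tested.

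Genes of varied function in the block rose, though not all by like amounts. Leaving aside F45D11.14, F45D11.15 and F45D11.16, the differences of those called ran from 0.499 for *tomm-22* to 2.735 for *clec-43*. *misc-1*, which encodes a mitochondrial carrier, had 12280, 11160 and 12700 normalised counts in *lin-22(ot269)* against 6472, 6878 and 6189 in *lin-22(ot267)*, a difference of 0.89 (standard error 0.0926, edgeR adjusted p = 3.12e-05). *rpt-4*, a subunit of the proteasome, differed by 0.69 (standard error 0.104, edgeR adjusted p = 0.000753) and the chitin synthase gene *chs-2* by 0.85 (standard error 0.218, edgeR adjusted p = 0.0295). *abu-11*, with a difference of -0.09 (edgeR adjusted p = 0.826), *ptr-3*, with 0.36, and the collagen genes *col-68* (0.34) and *col-69* (0.31) were among the 9 of the 113 genes that did not pass.

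F45D11.14, F45D11.15 and F45D11.16, which are neighbours at the inner edge of this block, rose far more than the rest of it. F45D11.15 had 71100, 42720 and 68600 normalised counts in *lin-22(ot269)* and 3313, 2993 and 4198 in *lin-22(ot267)*, with no overlap, which gave a difference of 4.12 (standard error 0.231, edgeR adjusted p = 1.46e-07). The differences of F45D11.14 and F45D11.16 were 4.04 and 3.997. The level of F45D11.15 in JR667, at 2864 ± 342 (SD, n = 3), was near that of *lin-22(ot267)*. Whether the 3 genes share reads was not tested. Together they took 0.24% to 0.39% of the counts in *lin-22(ot269)* libraries and 0.016% to 0.025% in *lin-22(ot267)* libraries, taken over 1 transcript of each gene. Leaving the whole block out, 1806 entries remained past the threshold, 959 of them higher and 847 lower.

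**Figure D2:**
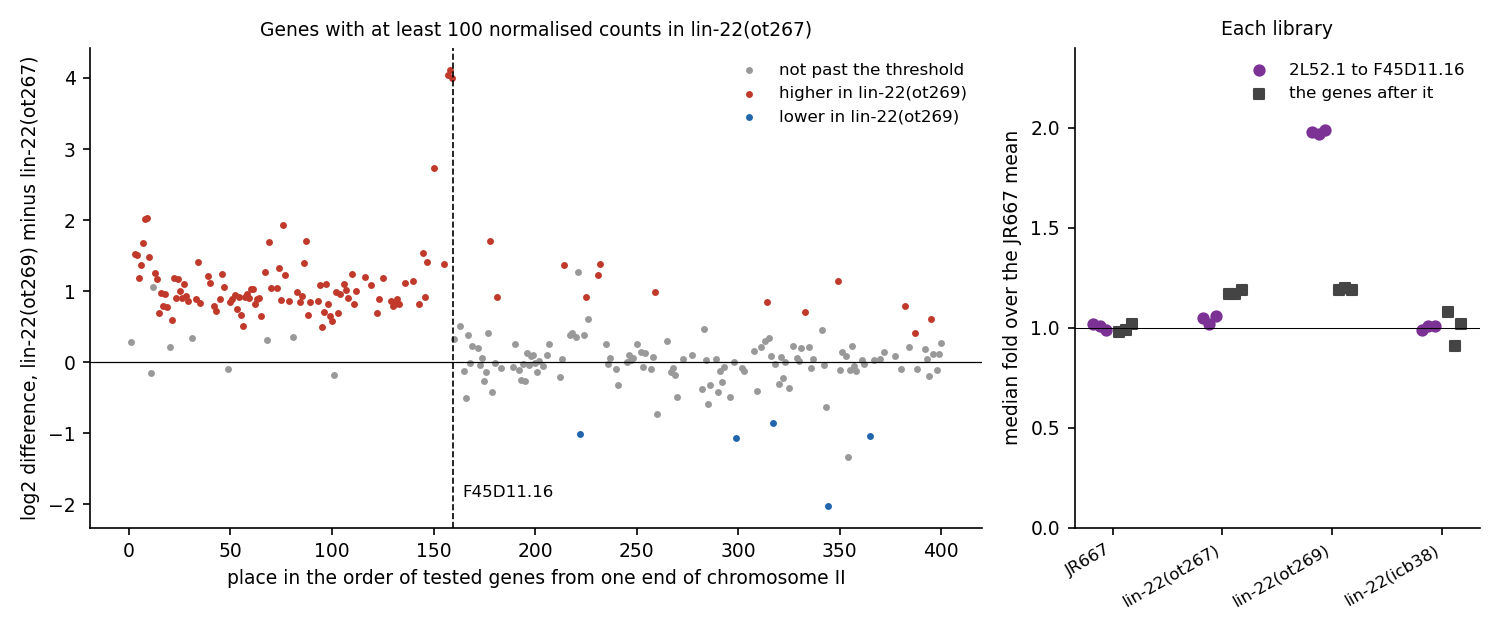
Left, log2 difference for genes with at least 100 normalised counts in *lin-22(ot267)*, by their place among the first 400 genes tested from one end of chromosome II; the dashed line marks F45D11.16, the last of the 159 genes of the block. Right, median fold over the JR667 mean in each of the 12 libraries, for the 113 such genes of the block (circles) and the 95 that follow (squares); circles lie near 2 only in *lin-22(ot269)*, at 1.97 to 1.99.

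*lin-22* itself (Y54G2A.1) was lower in *lin-22(ot269)*. Its libraries had 167, 158 and 101 normalised counts, against 356.5, 336 and 293 in *lin-22(ot267)*, and the groups did not overlap. The means were 142 ± 35.95 and 329 ± 32.4 (SD, n = 3 each), and the difference of -1.21 (standard error 0.28, edgeR adjusted p = 0.0164) stayed past the threshold when any 1 of the 6 libraries was left out. The RNA level says nothing of whether a full-length protein can be made, which the stop codon of *lin-22(ot267)* would prevent. The neighbouring gene upstream of *lin-22*, *vrp-1*, was lower as well. Its transcript Y54G2A.3a had 59.5, 74.3 and 113 normalised counts in *lin-22(ot269)* and 220, 452 and 197 in *lin-22(ot267)*, a difference of -1.82 (standard error 0.4, edgeR adjusted p = 0.0123). The JR667 mean of this transcript was 349.2 ± 158 (SD, n = 3). Of the other 15 genes tested within 8 places of *lin-22* in the gene order, 1 passed the threshold, *cpg-9*, a chondroitin proteoglycan gene, at -0.78.

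Of 20 genes of the seam cell network, 6 were higher and 2 lower (40%, against 10.6% of all genes), with a median difference of 0.29. The list holds *lin-22* itself, which is 1 of the 2 falls. *rnt-1*, which encodes the worm Runx factor that promotes seam cell proliferation, had 234, 247 and 184 normalised counts in *lin-22(ot269)* and 68.0, 89.9 and 50.97 in *lin-22(ot267)*. All *lin-22(ot269)* libraries were above all *lin-22(ot267)* libraries, and the difference was 1.66 (standard error 0.28, edgeR adjusted p = 0.00189). *ceh-16*, the engrailed homologue, which acts in seam cell identity, had 209, 148 and 298 against 81.4, 62.9 and 95.0, a difference of 1.46 (standard error 0.395, edgeR adjusted p = 0.0389). This call was lost without *lin-22(ot267)* replicate 1 or 2 and without *lin-22(ot269)* replicate 1 or 3, the lowest value being 1.16 (edgeR adjusted p = 0.187). The GATA factor genes *elt-1* and *egl-18* rose by 0.51 and 0.45, the fusogen gene *eff-1* by 0.49 and the nuclear receptor gene *nhr-73* by 0.91. The other fusogen gene, *aff-1*, which acts in the terminal fusion of seam cells, fell by 1.11 on the log2 scale (standard error 0.259, edgeR adjusted p = 0.0181). Without *lin-22(ot269)* replicate 1, 1 of the 20 was called higher, and *lin-22* and *aff-1* were again called lower.

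The Hes-type repressors are known to act on proneural genes. None of the 12 proneural and neuronal bHLH genes tested passed the threshold with all 6 libraries, with edgeR or DESeq2, and 1 had an unadjusted edgeR p under 0.05, while their median difference was 0.50. Without *lin-22(ot267)* replicate 1 or 3, 1 of them was called higher. Their levels were low: *hlh-14* had 13.8, 19.3 and 11.9 normalised counts in *lin-22(ot269)* and 4.12, 5.39 and 6.95 in *lin-22(ot267)*, and the difference of 1.44 (standard error 0.683) had an edgeR adjusted p of 0.26. *lin-32*, the atonal homologue that specifies postdeirid neuroblasts, differed by 0.21 (standard error 0.641, edgeR adjusted p = 0.904). In the fit of all 12 libraries none of the 15 genes of PVD and touch neurons passed with edgeR or DESeq2, and 4 had an unadjusted edgeR p under 0.05. With edgeR on the 6 compared libraries alone, 2 of them were higher and 2 lower. None of the 16 pan-neuronal genes passed with edgeR on 12 libraries, 2 were higher on the 6 libraries and 1 with DESeq2, and 3 had an unadjusted edgeR p under 0.05, all of them higher. Among 11 genes of dopaminergic neurons, *cat-2*, the tyrosine hydroxylase gene, was higher by 0.51 and the dopamine receptor gene *dop-2* by 0.44, while *cat-4*, the GTP cyclohydrolase gene, was lower by 0.64 (27.3% called in all, against 10.6% of all genes). *cat-2* lies in the block on chromosome II, and when the 6 libraries were left out in turn these 3 calls were lost 4, 6 and 3 times. *dat-1*, whose promoter drives the reporter, had 788, 693 and 770 normalised counts in *lin-22(ot269)* and 873, 860 and 810 in *lin-22(ot267)*, and the difference of -0.18 (standard error 0.123) did not pass (edgeR adjusted p = 0.476).

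Wnt signals polarise seam cell divisions. Of 28 genes tested (7 for ligands and their secretion, 6 for receptors and 15 for intracellular components), 1 was called, the ligand gene *cwn-1*, with edgeR and with DESeq2, while 5 had an unadjusted edgeR p under 0.05, *cwn-1* included. That is 14.3% of the ligand and secretion genes and 0% of the receptor and intracellular ones, against 10.6% of all genes. Another ligand or secretion gene was called higher as well without *lin-22(ot267)* replicate 1, and 2 of the 7 were on the 6 compared libraries alone. *cwn-1* had 2062, 1822 and 2061 normalised counts in *lin-22(ot269)* and 998, 823 and 746 in *lin-22(ot267)*, a difference of 1.21 (standard error 0.142, edgeR adjusted p = 9.02e-05). *cwn-1* also lies in the block, where the median difference was 0.93. Of the 6 Hox genes, *ceh-13* (16.7% of the list), the labial homologue, was higher by 0.88 (standard error 0.188, edgeR adjusted p = 0.0103), with 1155, 1293 and 1476 against 769, 721 and 637. *lin-39*, *mab-5* and *egl-5* differed by 0.25 to 0.27 and did not pass. None of the 17 Notch genes passed on 12 libraries with edgeR or DESeq2, 1 had an unadjusted edgeR p under 0.05, and edgeR on the 6 compared libraries alone called 2 lower. Of 19 genes of EGF signalling and vulval fate only *lin-11* (5.26% of the list), a LIM homeobox gene needed in the vulva, passed on 12 libraries with edgeR, at -1.20 (standard error 0.26, edgeR adjusted p = 0.0115).

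The heterochronic genes set the succession of larval stages in the epidermis. Of 17 tested, 7 were higher and 0 lower (41.2%) with edgeR and with DESeq2, 1 was lower at an unadjusted edgeR p under 0.05, and the median was 0.22. On the 6 compared libraries alone edgeR called 8 higher and 1 lower, and with a library left out it called 4 to 6 higher, the lowest without *lin-22(ot267)* replicate 2 or 3. *daf-12*, which encodes the nuclear receptor that times L3 programmes, had 4171, 3508 and 3711 normalised counts in *lin-22(ot269)* and 2085, 1743 and 1975 in *lin-22(ot267)*, a difference of 0.97 (standard error 0.125, edgeR adjusted p = 0.000192). *lin-41*, a target of the *let-7* microRNA, had 9232, 7800 and 8382 against 4755, 3580 and 4063, which came to 1.04 (standard error 0.156, edgeR adjusted p = 0.000756). *hbl-1*, the hunchback homologue, was higher by 0.77 and *dre-1* by 0.46. The calls of these 4 genes held whichever of the 6 libraries was left out. Those of *lin-42*, the period homologue (0.91), *lin-46* (0.48) and *lin-14* (0.35) were lost 3, 4 and 6 times. *lin-42* lies on chromosome II beyond the block, among the 159 genes that follow it.

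**Figure D3:**
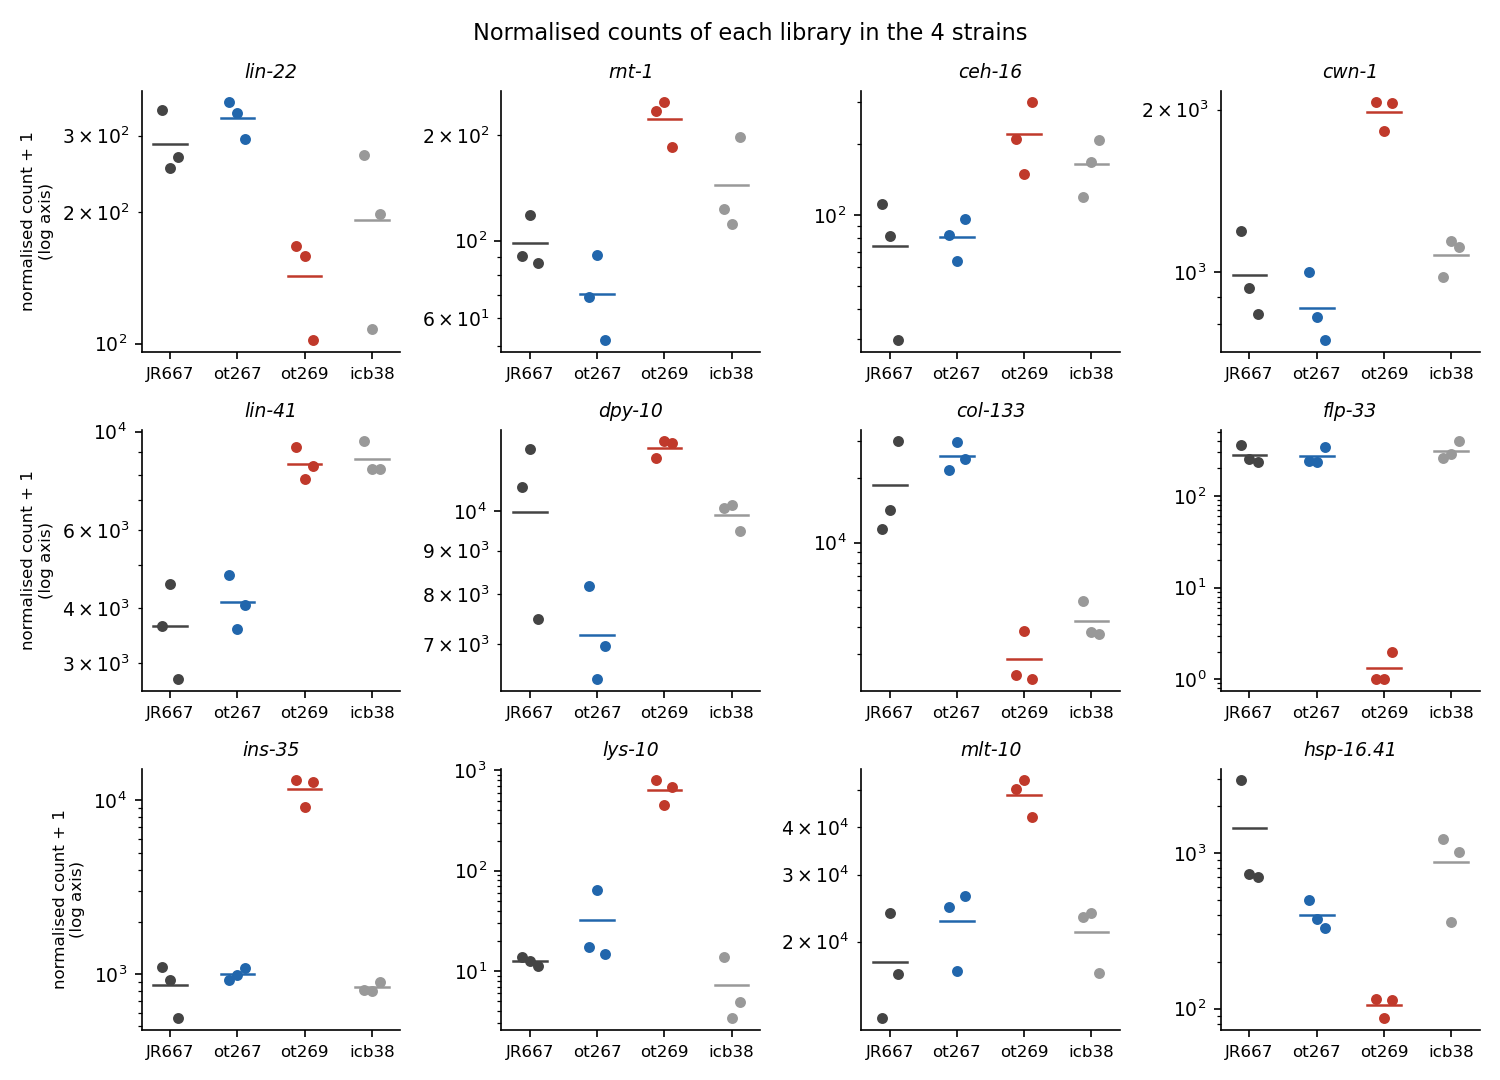
Normalised counts plus 1 of 12 genes on log axes in the 3 libraries of each of the 4 strains (points) with the strain mean (bars). *flp-33* and *col-133* lie far below *lin-22(ot267)* in *lin-22(ot269)*, and *ins-35* and *lys-10* far above it, while for *lin-41* and *col-133* the *lin-22(icb38)* libraries lie near those of *lin-22(ot269)*.

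Genes of the cuticle moved in both directions. The cuticle is remade at each moult, and its genes are known to peak at different times within each larval stage. All 6 genes of the annular furrow collagens were higher, by 0.66 for *dpy-9* to 0.86 for *dpy-3*. For 0 of the 6 was the JR667 mean nearer to *lin-22(ot267)* than to *lin-22(ot269)*. *dpy-10* had 11530, 12060 and 12000 normalised counts in *lin-22(ot269)* and 8187, 6370 and 6968 in *lin-22(ot267)*, with no overlap (0.73, standard error 0.143, edgeR adjusted p = 0.0059), and JR667 libraries ranged from 7496 to 11810. Of 26 genes with roles in moulting, 13 were higher and 3 lower (61.5%), with a median of 0.49. *noah-1* and *noah-2*, which encode zona pellucida domain proteins of the apical matrix, rose by 0.68 and 0.74, and *nas-37*, the gene of an astacin protease that opens the old cuticle, by 0.76. *mlt-8* and *mlt-10*, at 1.24 and 1.11, lie in the block on chromosome II, as does the collagen gene *sqt-2* (1.36). *bli-5* and *mlt-7* fell by 0.70 and 0.54. Without *lin-22(ot269)* replicate 2 the numbers in the moulting list were 7 and 3.

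The larger *col* family of cuticle collagens showed the opposite balance, with 45 of 134 lower and 10 higher (41.0%) and a median of -0.47. *col-133* had 2381, 3825 and 2280 normalised counts in *lin-22(ot269)* and 21910, 29620 and 24740 in *lin-22(ot267)*, a difference of -3.17 (standard error 0.315, edgeR adjusted p = 2.29e-05). Its *lin-22(icb38)* libraries were also low, at 5323, 3787 and 3717, while those of JR667 ranged from 11640 to 29850. Among the most abundant members, *col-12* fell from 45220 ± 7706 to 14930 ± 1089 (SD, n = 3 each) and *col-13* from 43390 ± 8153 to 14820 ± 798 (SD, n = 3 each). *col-158* rose by 3.05 (standard error 0.309, edgeR adjusted p = 2.65e-05), from 97.9, 101 and 76.4 normalised counts in *lin-22(ot267)* to 815, 555 and 915. Without *lin-22(ot267)* replicate 3 there were 46 lower and 8 higher, and without *lin-22(ot269)* replicate 3 there were 30 and 9.

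Of 63 *abu* and *pqn* genes, many of which encode proteins of the pharyngeal cuticle, 17 were lower and 0 higher (27%) with edgeR, and 3 were higher at an unadjusted p under 0.05; with DESeq2 the numbers were 20 and 0, and with edgeR on the 6 compared libraries alone 21 and 1. Without *lin-22(ot269)* replicate 3, edgeR called 11 lower. *abu-4* had 8.51, 3.86 and 13.8 normalised counts in *lin-22(ot269)* and 99.9, 141 and 83.4 in *lin-22(ot267)*, and fell by 3.62 on the log2 scale (standard error 0.495, edgeR adjusted p = 0.000326). *pqn-57* and *abu-9* fell by 2.04 and 1.89. Some of these genes lie side by side, as do *abu-15*, *abu-6* and *abu-7*, and near-identical copies may share reads. Of the *nspb* family of small nematode-specific peptides, noticed after the values were seen, 10 of 12 genes were lower (83.3%, against 10.6% of all genes), between -0.90 and -3.10. *rol-6*, a mutant copy of which marks *vtIs1* in both strains, had 41100, 40650 and 37840 normalised counts against 68350, 48130 and 68500, a difference of -0.63 (edgeR adjusted p = 0.0457) whose call was lost 5 times when the 6 libraries were left out in turn.

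Genes of innate defence moved in both directions. Of 13 *lys* and *ilys* lysozyme genes, a group picked out after the values were seen, 5 were higher and 8 did not pass (38.5% called, against 10.6% of all genes). The lysozyme gene *lys-10* had 794, 453 and 684 normalised counts there and 16.5, 62.9 and 13.9 in *lin-22(ot267)*, a difference of 4.32 (standard error 0.467, edgeR adjusted p = 4.16e-05). *lys-7*, also a lysozyme gene, rose by 2.22, from 4292 ± 821 to 20010 ± 2744 (SD, n = 3 each). *ilys-3*, which encodes an invertebrate-type lysozyme, had 198, 149 and 220 against 11.3, 12.6 and 23.2 (3.6, standard error 0.452, edgeR adjusted p = 0.000159). In the list of 77 antimicrobial effectors, 16 were higher and 10 lower (33.8%). The falls were 9 *fipr* genes, by 0.77 to 1.61, and *spp-22*. Without *lin-22(ot267)* replicate 2 only 3 of the 77 were lower. Of 147 C-type lectin genes, 24 were higher and 4 lower (19%). *clec-17* had 1813, 1208 and 1565 against 250.4, 257 and 269 (2.56, standard error 0.222, edgeR adjusted p = 7.01e-06), and *clec-43*, at 2.73, lies in the block.

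Insulin-like peptide genes included *ins-35*, which had 13050, 9137 and 12840 normalised counts in *lin-22(ot269)* and 922, 991 and 1077 in *lin-22(ot267)*. Its difference was 3.55 (standard error 0.211, edgeR adjusted p = 2.39e-07), and JR667, at 860 ± 279 (SD, n = 3), was near *lin-22(ot267)*. *ins-5*, *ins-4* and *ins-33* rose by 2.13, 1.92 and 1.86. In all, 5 of 29 insulin-like genes were higher and 2 lower (24.1%). Of 73 cytochrome P450 genes, 14 were higher and 4 lower (24.7%), among them *cyp-13A2*, with 9950, 8038 and 10750 against 3168, 3007 and 3081 (1.63, standard error 0.138, edgeR adjusted p = 6e-06). Of 233 nuclear hormone receptor genes, 17 were higher and 2 lower (8.15%, against 10.6% of all genes). Among genes whose *lin-22(ot269)* mean reached 100 normalised counts, with no overlap between the strains, the 3 largest rises were those of F58E6.4 (7.07), *dct-19* (5.96) and Y39G8B.7 (5.58). Y39G8B.7 had 2202, 2521 and 1955 normalised counts in *lin-22(ot269)* and 61.8, 58.5 and 16.2 in *lin-22(ot267)* (edgeR adjusted p = 5.25e-07).

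**Figure D4:**
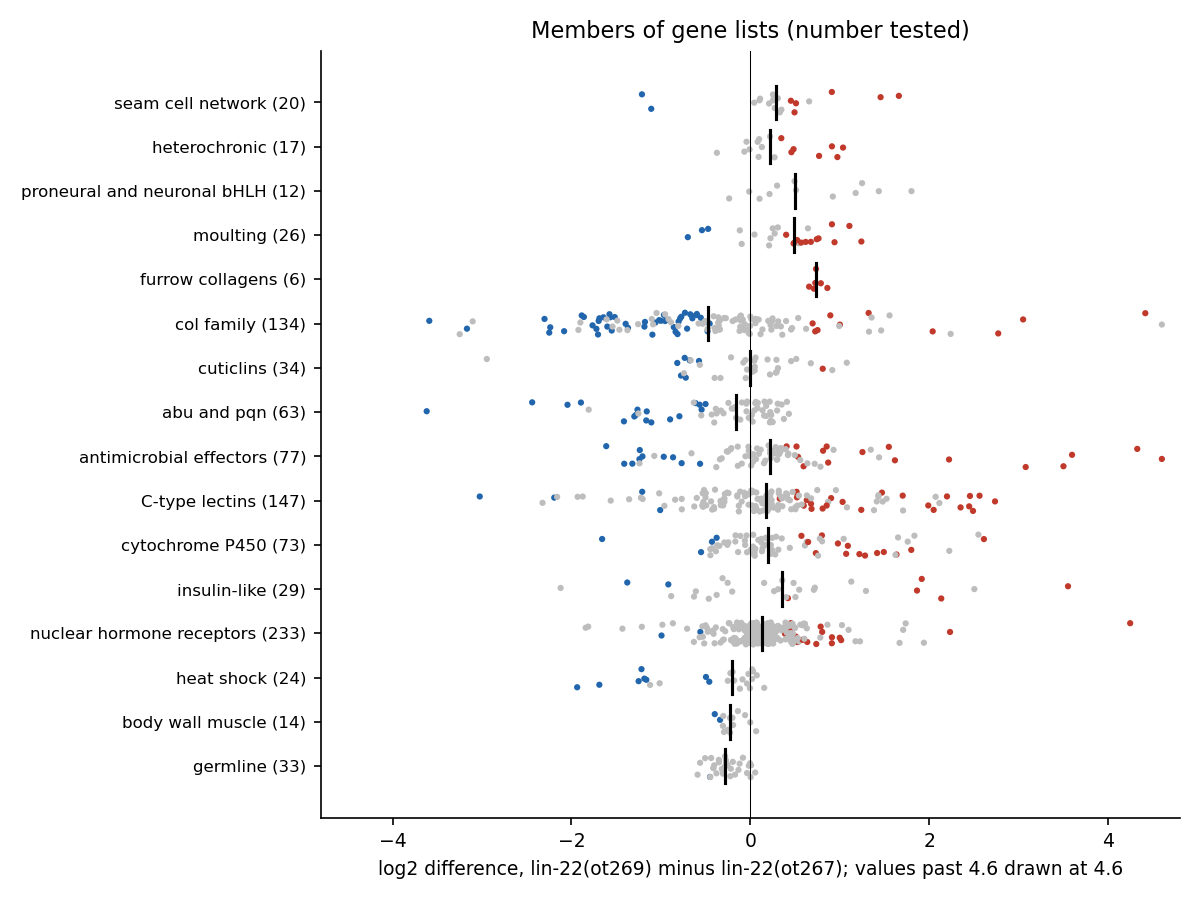
Log2 difference of each tested member of 16 gene lists, 1 transcript per gene, with the number tested in brackets and the median as a black bar. Red and blue points passed the threshold and grey points did not; all 6 furrow collagens lie above 0, whereas 97 of 134 *col* genes lie below it.

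At the other end, the neuropeptide gene *flp-33* was nearly absent from *lin-22(ot269)*, with 0, 0 and 0.988 normalised counts (the last a single count), against 238, 232 and 341 in *lin-22(ot267)*. Taking the floor as 3 counts in each library, its level was at least 89.6-fold lower. JR667 had 280 ± 66.0 (SD, n = 3), and the *lin-22(icb38)* libraries 258, 285 and 393. Of the other 29 FMRFamide-like genes tested, *flp-10* fell by 0.85 on the log2 scale and 4 rose, by 0.52 to 0.61. D1086.10 (transcript D1086.10a) was at 0 in every *lin-22(ot269)* library and at 70.1, 253 and 16.2 in *lin-22(ot267)*, at least 37.5-fold lower. The bound was 14.3-fold without *lin-22(ot267)* replicate 2. The mean of D1086.10a was 0.65 in *lin-22(icb38)* and 258.9 in JR667, whose libraries ranged from 84.96 to 464.4. In all, 31 of the lower entries were at or under 3 counts in every *lin-22(ot269)* library.

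Of 33 sperm genes other than those of the major sperm proteins, 0 passed with edgeR, 4 had an unadjusted edgeR p under 0.05, and DESeq2 called 1 higher and 3 lower. Their median was -0.17. Outside that list, sperm genes were among the 31 entries, and 2 of them, picked out after their values were seen, are given here. *ssq-4* had 3.19, 1.93 and 0 normalised counts against 39.1, 35.1 and 33.6, and *cyc-2.2*, the testis-type cytochrome c gene, 0, 1.93 and 0 against 25.8, 13.5 and 44.0. In *lin-22(icb38)* the mean was 16.89 for *ssq-4* and 0.794 for *cyc-2.2*, against 85.85 and 60.79 in JR667. The JR667 libraries varied widely, from 33.2 to 159 for *ssq-4* and from 23.1 to 109 for *cyc-2.2*. *spch-3* and *cylc-1* were also among the 31. *alg-4*, an Argonaute gene of spermatogenesis that was low but not among the 31, had 0, 6.75 and 3.95 against 127.8, 94.4 and 131 (-4.97, standard error 0.97, edgeR adjusted p = 0.00562). Of 17 major sperm protein genes tested, 2 passed the threshold (11.8%, near the 10.6% of all genes), both lower, with a median of -2.26 for the list. DESeq2 called 6 lower, and without *lin-22(ot269)* replicate 1 or 3 edgeR called 0. These counts were low, and the copies may share reads. Of 33 germline genes, 30 were below 0, with a median of -0.28. Such a lean was not particular to them, since 71 of 76 ribosomal protein genes were also below 0 (median -0.15). Of all 15951 genes tested outside the block on chromosome II, 7538 were above 0. Among the germline genes *fbf-2* passed (-0.45), or 3.03%. Its call was lost whichever of the 6 libraries was left out. In the edgeR fit of the 6 compared libraries alone, 13 of the 33 were called lower and 0 higher, and DESeq2 called 2 lower.

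Of 24 heat shock genes, 8 were lower and 0 higher (33.3%) with edgeR, and 6 and 0 with DESeq2, with 10 and 0 at an unadjusted edgeR p under 0.05. *hsp-16.1*, *hsp-16.48*, *hsp-16.49* and *hsp-16.11*, all called lower (-1.16 to -1.25), lie side by side among the genes tested, and near-identical copies may share reads. *hsp-16.41*, a small heat shock protein gene, had 115, 85.8 and 113 normalised counts in *lin-22(ot269)* and 497, 374 and 327 in *lin-22(ot267)* (-1.94, standard error 0.536, edgeR adjusted p = 0.0434). JR667 libraries varied from 700 to 2917. The number called lower was between 1 and 4 whichever of the 6 libraries was left out, 1 without *lin-22(ot269)* replicate 1 and 4 without *lin-22(ot267)* replicate 3. Of body wall muscle genes, 13 of 14 were below 0 (median -0.23, against -0.015 over all genes), and *mup-2* and *unc-27* passed (14.3%), at -0.40 and -0.34. When the 6 libraries were left out in turn, these calls were lost 6 and 5 times.

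Among 126 repeat families tested, 7 (5.56%) passed, against 9.93% of all entries tested. The DNA transposon Tc1 (TC1A) was higher, with 4858, 4525 and 4559 normalised counts in *lin-22(ot269)* against 2308, 2490 and 2272 (0.98, standard error 0.152, edgeR adjusted p = 0.000973). CER2-I_CE, the internal part of a retrotransposon, was lower, with 441, 621 and 411 against 1232, 1325 and 1047 (-1.29, standard error 0.224, edgeR adjusted p = 0.00236). Here *lin-22(ot267)* was the strain that stood apart, with a mean of 1202. The means of JR667 (535.6) and *lin-22(icb38)* (439.3) lay near the 491.1 of *lin-22(ot269)*. The entry CER2-LTR_CE, also called lower (-0.79), had the same pattern. Its mean was 233.3 in *lin-22(ot267)*, 134.5 in *lin-22(ot269)*, 114.7 in JR667 and 98.2 in *lin-22(icb38)*.

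JR667 was not one of the strains compared, and its level relative to both was described for the called genes. On the log2 scale its mean was nearer to *lin-22(ot267)* than to *lin-22(ot269)* for 720 of the 967 genes called higher (74.5%) and for 602 of the 744 called lower (80.9%). Among genes not called, the share was 57.9%. JR667 carries another marker, so these positions are a description and were not tested.

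**Figure D5:**
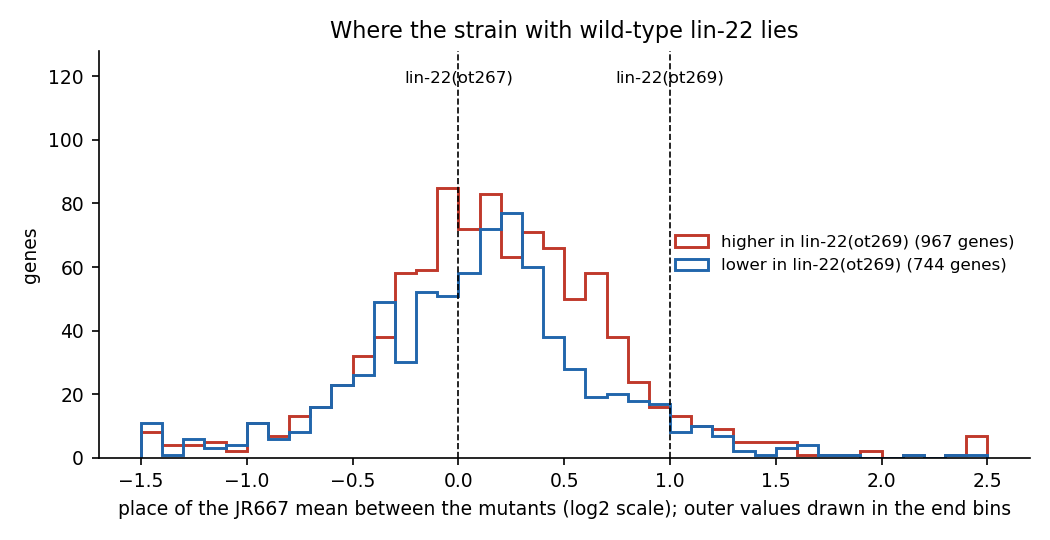
Place of the JR667 mean between *lin-22(ot267)* (at 0) and *lin-22(ot269)* (at 1) on the log2 scale, for the 967 genes called higher (red) and the 744 called lower (blue) in *lin-22(ot269)*. Values below 0 or above 1 lie outside the range between the mutants; the medians are 0.15 and 0.12. The 967 genes include 116 of the block on chromosome II.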

How the data were processed

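RNA was sequenced from whole L3 larvae with a stranded mRNA kit. Per the labels, the authors used Bowtie2 and bedtools, and the count table they deposited holds raw read counts per transcript, not normalised. Versions, genome build, annotation and strand setting are not given in the sources used here, so no coordinates are given, and overlapping or near-identical genes may share reads. A table of normalised counts that the authors also deposited was not used.

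Counts of 23953 entries (23771 transcripts of 20188 genes and 182 repeat families or other sequences) were analysed by the quasi-likelihood test of edgeR 4.0.16 under R 4.3.3. A single model held the 12 libraries and estimated each strain separately, with RLE size factors and filterByExpr set to a count minimum of 10. P-values were adjusted with Benjamini-Hochberg and held to 0.1. Standard errors were approximated as the log2 difference divided by the root of F. The common biological coefficient of variation was 0.165. Nothing in the labels says whether libraries came from separate cultures, so p-values measure the spread between these libraries. Within *lin-22(ot269)* and within *lin-22(ot267)*, no libraries were duplicates (chi-square per entry at least 13.48). Other pairs of libraries were not checked in this way. The floor of 3 counts covers counting error only. The WBcel235 gene table gave names for 23136 entries and the order of genes.

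Of each gene in a list, the transcript with the most counts was used. Members and the 45 lists were chosen with earlier results of these data known. Genes to name were *lin-22*, *vrp-1*, *dat-1* and *rol-6*, the 12 largest called changes in each direction whose mean in the higher strain reached 100 normalised counts without overlap, up to 4 of the largest called changes per list, and all called members of the seam, heterochronic, Wnt, proneural and Hox lists. Some of these are named and the rest counted, and other genes were singled out after their values were seen. Lists not described in the report are given in the closing section. The procedure was tested on simulated data. Alternatives were a threshold of 0.05, TMM, library totals, 2 other filters, DESeq2 1.42.0, a fit with a replicate block, a fit of 1 transcript per gene, a fit of the 6 libraries alone and leaving out each library. Leaving out the block on chromosome II was added after the data were seen. Tables and plots were made with Python 3.11.15, pandas 2.3.3 and matplotlib 3.10.9.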

Additional observations from a re-analysis of the deposited data

How the results depend on the processing

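The difference of *lin-22* kept its direction and stayed past the threshold under each of the 15 other settings tried, between -1.02 and -1.34 when a library was left out. The block on chromosome II held 106 to 120 genes called higher and 0 lower in every alternative. The number of entries past the threshold, 1956, was 1303 at a threshold of 0.05 (778 higher, 525 lower), 2650 with DESeq2 and 2913 with only the 6 libraries of both strains (1552 higher and 1361 lower). When 1 library was left out, it was between 1019 and 1684, with 635 to 931 higher and 384 to 753 lower; the lowest of each came without *lin-22(ot269)* replicate 1. Entries that changed at least 2-fold stayed within 1.5 times the 583 above in every alternative. Of 147 named entries, 123 kept their side of the threshold at 0.05, 142 with library totals and 94 without *lin-22(ot269)* replicate 1, and none reversed. Samples with the same replicate number in both strains did not deviate together (correlations of 0.04, 0.04 and 0.01), so the numbers were not taken as pairs. With a replicate block, 1559 entries passed (916 higher, 643 lower) and *lin-22* was at -1.22. Low counts limited calls, since the smallest difference called among genes under 100 mean normalised counts was 0.82.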

Other observations

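Gene groups not described above are given as counts with no test of the group, each with the share of its tested genes that were called, against 10.6% of all genes. Of 72 neuropeptide-like genes, 5 were higher and 5 lower (13.9%). The falls included *nlp-4* (-1.46), *nlp-26* (-1.41) and *nlp-71* (-1.38), and the largest rise was that of *nlp-51* (1.04). Of 29 astacin protease genes, 3 were higher and 6 lower (31.0%); *nas-3* had 1313, 1141 and 1742 normalised counts in *lin-22(ot269)* and 423, 279 and 343 in *lin-22(ot267)*, while *nas-1* had 317, 381 and 283 against 760, 897 and 945. Of 47 hedgehog-related genes, 4 were higher and 4 lower (17%), with *wrt-2* at 1.01 and *grd-6* at -0.90. Of 27 patched-related genes, 4 were higher, *ptr-11* (0.71), *ptr-15* (0.67), *ptr-10* (0.61) and *ptr-4* (0.52), and 1 lower (18.5%). Of 14 other body-shape collagen genes, 3 were higher and 1 lower (28.6%); *sqt-1* rose by 0.97. Of 34 cuticlin genes, 1 was higher and 6 lower (20.6%). Of 54 homeobox genes of the *ceh* series, 3 were higher and 1 lower (7.41%), *ceh-60* at -1.61 and *ceh-23* at 1.03.

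Among metabolic enzymes, 6 of 67 UDP-glucuronosyltransferase genes were higher and 10 lower (23.9%), with *ugt-29* at -1.28 and *ugt-44* at 0.70. Of 44 glutathione S-transferase genes, 5 were higher and 1 lower (13.6%), and *gst-20* (0.95) and *gst-10* (0.78) led the rises. Of 6 vitellogenin genes, *vit-1* (-1.89) and *vit-2* (-4.12) were lower (33.3%), while 3 of the 6 were above 0, up to 1.93. With each of the 6 libraries left out in turn, the *vit-2* call was lost 3 times, with values from -3.125 to -9.035. That of *vit-1* was lost 0 times. Of 12 intestinal genes, 3 were higher, *cpr-1* (0.75), *pgp-1* (0.74) and *mtl-2* (0.52), and *ifb-2* was lower (-0.35), in all 33.3%. Of 12 pharyngeal genes, *phat-2* (-0.58) and *tnt-4* (-0.44) were lower (16.7%), and of 8 hypodermal genes *dpy-7* (0.71) and *che-14* (0.36) were higher (25%). Of 33 cell cycle genes, *cki-1* (-0.59), *cdc-25.1* (-0.44) and *cya-1* (-0.36) were lower (9.09%). Of 76 ribosomal protein genes, *rpl-11.1* was lower (-0.45), or 1.32%, and of 64 histone genes *his-31* (-1.27) and *his-74* (-0.38) were, or 3.12%. When the 6 libraries were left out in turn, the *cya-1* call was lost 6 times. Those of *ifb-2*, *che-14*, *cdc-25.1* and *his-74* were lost 5 times each, and those of *cpr-1* and *dpy-7* 0 times. Of 21 Argonaute genes, *alg-2*, in the block on chromosome II, was higher (0.81) and *alg-4* and *wago-10* were lower (14.3%). Of 212 F-box genes, 14 were higher and 9 lower (10.8%), a share close to that of all genes, and 6 of the 14 lie in the block.

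Families noticed after their values were seen were the *scl* genes, of which 6 of 10 were higher (60%), the *cpr* proteases with 4 of 8 higher (50%), the *cest* esterases with 9 of 32 higher and 2 lower (34.4%), and the *idpp* genes with 8 of 16 lower and 2 higher (62.5%). The C-type lectin gene *clec-82* was also picked out after its values were seen, from a list with 24 of 147 higher. It had 305 ± 102 normalised counts in *lin-22(ot269)* and 59.1 ± 39.9 in *lin-22(ot267)* (SD, n = 3 each). The difference was 2.35 (edgeR adjusted p = 0.0188). Its sequence name places it on the clone of *lin-22*, but it is not within 8 places of *lin-22* in the gene order. Among the genes that are, only *lin-22*, *vrp-1* and *cpg-9* were called, all lower.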
